A study of Sus scrofa with 6 samples.

Results

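The candidate miRNAs described here are pig small RNAs of longissimus dorsi muscle that were not assigned to a miRBase precursor placed in the pig genome but were given a predicted hairpin, and that were listed with 10 or more normalized reads on average in at least 1 of 2 pig breeds. The rule took 93 of 471 candidate rows in a table of 1143 miRNAs, in which they carry the prefix PC, and which also held 433 known pig miRNAs and 238 miRNAs conserved from other mammals, with the prefix PN. The study's methods give these prefixes the other way round, and the class column of the table was followed here. The libraries came from 3 Large White (LW) and 3 Meishan (MS) pigs, a lean and an obese breed, and a miRNA's value is the normalized read number of its most abundant sequence. By the study's methods the animals were female fetuses of 35 days post-conception, each from a different sow and chosen by placenta location. The labels instead give unrelated adult females of 2 years. The breeds were compared without regard to that conflict, and no treatment or genetic change was applied to either breed. Each library is 1 animal.

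A miRNA is cut from a folded RNA hairpin by the nucleases Drosha and Dicer and guides Argonaute proteins to messenger RNAs. It finds its targets mainly through the seed, the bases near its 5′ end, so that a change within the seed alters the set of targets, while a change at the 3′ end mostly does not. Each hairpin can give a 5p and a 3p mature arm, of which one usually accumulates. A candidate from sequencing is a mapped read with a predicted fold, and the table gives no role for any of the 93.

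The most abundant members carry most of the reads and are printed for that reason, 5′ to 3′ and with the seed, bases 2 to 8, in capitals. No 2 members shared a seed.
PC-92-3p: tGGTGCCTgacgtcttggcagt
PC-92-5p: aGCCAGGGctgcaggcactgaca
PC-7-3p: tATTGCACttgtcccggcctga
PC-112-5p: tCCCGTCCcgtggtctcccc
PC-36-3p: aCTGGACTtggagtcagaaggct
PC-61-5p: cTCCTGGCtggctcgcca
PC-252-5p: gTTTGACTgactgtgttt
PC-84-5p: gTGAGGTAgtaggttgtatagtt
The hairpin of PC-92 shows both of its arms in capitals, each found in it base for base, and it is the only listed hairpin besides that of PC-133 with both arms among the members.
PC-92 hairpin: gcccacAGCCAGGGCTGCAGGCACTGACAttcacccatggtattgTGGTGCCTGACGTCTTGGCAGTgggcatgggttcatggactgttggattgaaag

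The members had a median length of 22 nt, with 29 members of 22 nt and 27 of 23 nt, and 25 members (26.9%) were 18 to 20 nt long. Among miRNAs that met the same level, 10 of 362 known (2.76%) and 5 of 92 conserved miRNAs (5.43%) were that short, whereas 28.8% of the 378 less abundant candidates were. GC content of the members ran from 28.6 to 89.5% with a median of 52.6%, against 47.8% in the known and 45.5% in the conserved miRNAs and 54.2% in the less abundant candidates. The short members were richer in G and C, with a median of 63.2%, than the 66 members of 21 to 24 nt, with 51.1%. The same held for short known (60% against 47.7%) and conserved miRNAs (60% against 44.5%), but not for less abundant candidates (52.6% against 54.5%). Of the members 50 were named as 5p and 43 as 3p arms. No member had the same 6 values as any other row, although 95 candidate rows of the table did, all with a breed mean of 8.93 or less, and no 2 members had the same sequence. A single row of values carried 2 names in 4 members, among them PC-87-3p and PC-88-3p as well as PC-5-5p and PC-6-5p.

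Most members were scarce. Only 3 reached a mean above 1000 normalized reads in a breed, 18 reached 100, and 75 stayed under 100 in both breeds. The members just inside the threshold were PC-326-5p, PC-383-3p and PC-43-3p, with higher breed means of 10.6, 10.7 and 10.8, and those just outside were PC-280-3p, PC-116-3p with PC-117-3p, and PC-94-3p, with 9.98, 9.68 and 9.67. One read was worth 0.720 to 1.69 normalized reads, so a median member rested on 10 to 25 reads in a library. Above 0 in every library were 81 members, and PC-426-5p was the only member at 0 in all 3 libraries of a breed. The rule was met in both breeds by 45 members, in LW alone by 31 and in MS alone by 17.

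Facts of the libraries bear on every level. The deposited values summed to 2541224 to 2914028 in LW and to 1757879 to 2362082 in MS, and corresponded to 1039002 to 3419271 reads, with MS3 the shallowest. Skeletal muscle miRNAs (miR-1-3p, miR-133a-3p, miR-133b-3p and miR-206-3p) were present throughout and summed to 17015 to 22040 in LW and 61079 to 84301 in MS, with all 4 markers higher in every MS library. The 6 erythroid miRNAs summed to 3510.4 to 4571 in LW and 6107 to 10782 in MS, 3 of them without overlap. The cartilage miRNA pair of miR-140 summed to 54414 to 71203 in LW and 4540.4 to 10576 in MS, nearly all of it miR-140-3p, while miR-140-5p overlapped (1 of 2 without overlap). Liver miR-122-5p stood at 2860.0 in LW3, at 182 and 237 in LW1 and LW2 and at 46.8 to 89.1 in MS, lower in every MS library. The other liver marker, miR-122-3p, was near the floor, at 0.813 to 3.65 in LW and 0 to 0.720 in MS. Its lower values in MS rest on a few reads at most. The part of tissue composition in the results was not tested, and in such bulk samples fewer cells of a type cannot be told apart from less RNA per cell.

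PC-92-3p alone made up 56.3 to 82.6% of the members' reads. It stood at 15666, 11548 and 10857 normalized reads in LW1 to LW3 and at 31902, 27007 and 11270 in MS1 to MS3. MS1 and MS2 lay above all LW libraries, and MS3 lay within the LW range. The log2 fold change of MS over LW was 0.77 ± 0.35 (SE, n = 3 per breed) and did not pass (limma, adjusted p = 0.0774). It passed without MS3, at 1.23, after scaling to equal sums, at 1.21, and after a GC correction, at 1.45. The other 92 members summed to 0.264 to 0.296% of the deposited reads in LW and 0.284 to 0.460% in MS.

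The opposite arm of that hairpin fell in MS. PC-92-5p stood at 1554, 1531 and 2015 normalized reads in LW and at 606, 524 and 531 in MS. Every MS library was below every LW library, and the level fell by 1.61 ± 0.26 on the log2 scale (SE, n = 3 per breed, limma adjusted p = 0.00024). The 3p to 5p ratio within a library was 10.1, 7.54 and 5.39 in LW and 52.7, 51.6 and 21.2 in MS, with no overlap. Since both arms are read in the same library, this ratio does not depend on the scaling of libraries. An exact two-sided permutation test of the log2 ratio gave p = 0.1, the smallest that 3 against 3 libraries allow, and 0.125 after Benjamini-Hochberg adjustment over the 5 ratios compared. The arms of PC-133 had 3p to 5p ratios of 1.20, 1.87 and 1.22 in LW and 0.714, 4 and 0.667 in MS. These overlapped (exact permutation p = 1) and rest on few reads. In MS1 to MS3 the 3p arm had 10, 8 and 2 reads and the 5p arm 14, 2 and 3. Such numbers cannot show whether the ratio of PC-133 was unchanged.

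**Figure D1:**
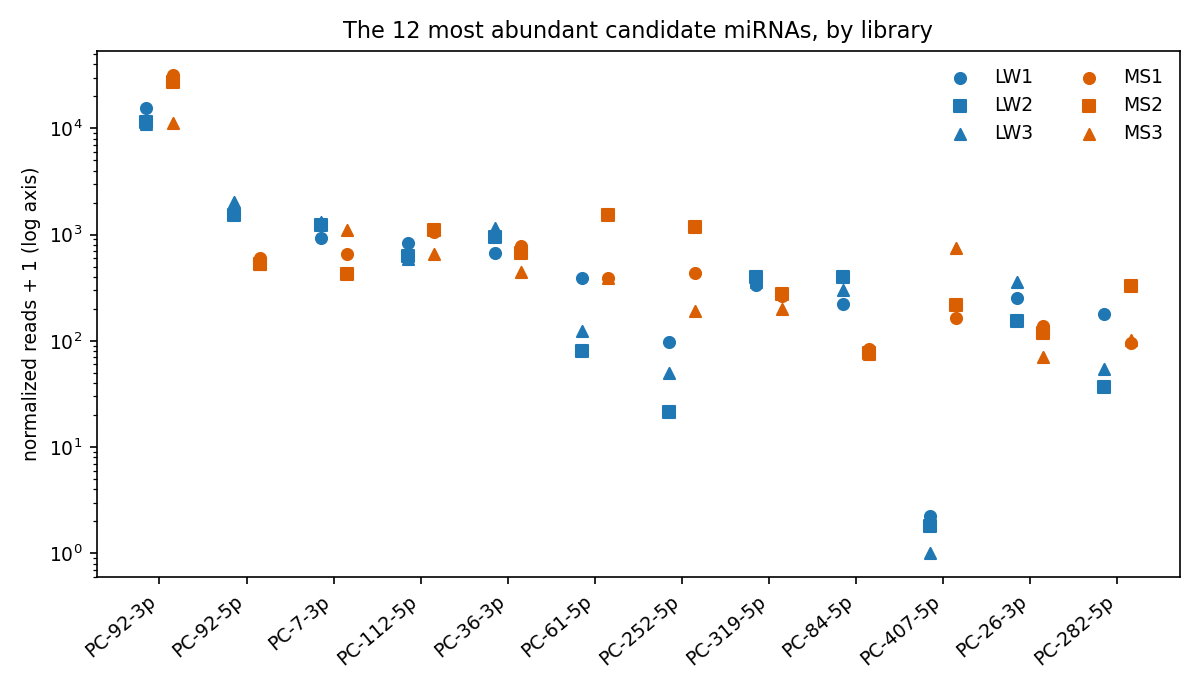
Normalized reads plus 1 (log axis) of the 12 most abundant members in each of the 6 libraries, blue for LW and orange for MS, with a marker for each replicate number. PC-92-5p, PC-319-5p, PC-84-5p and PC-26-3p were lower in every MS library, and PC-407-5p was near 1 read in LW and at 164 to 746 normalized reads in MS.

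Among the next most abundant members, PC-84-5p fell, PC-61-5p and PC-252-5p rose, and PC-7-3p, PC-112-5p and PC-36-3p were not called. PC-84-5p stood at 219.9, 401 and 302 in LW1 to LW3 and at 82.8, 76.7 and 74.4 in MS1 to MS3. No value overlapped between breeds, and the level fell by 1.93 ± 0.33 on the log2 scale (limma adjusted p = 0.000293). PC-252-5p, an 18-nt sequence, stood at 96.5, 20.3 and 48.4 in LW and 429.6, 1184 and 191 in MS, again without overlap and with a log2 fold change of 3.3 ± 0.64 (limma adjusted p = 0.000835). PC-61-5p stood at 388, 79.7 and 122 in LW and 391, 1530 and 393 in MS, so that LW1 nearly met the MS range. Its log2 fold change of 1.98 ± 0.61 (limma adjusted p = 0.0138) lost the call without LW2, at 1.5, and without LW3, at 1.80. PC-112-5p stood at 823, 628 and 585 in LW and 1049, 1101 and 658 in MS, with overlap and a log2 fold change of 0.44 ± 0.30 (limma adjusted p = 0.216). Of the other members among the 12 most abundant, PC-26-3p was called lower, at −1.19 on the log2 scale (limma adjusted p = 0.0192), PC-407-5p was called higher and is described with the largest rises, and PC-319-5p, at −0.57, and PC-282-5p, at 1.04, were not called. PC-26-3p and PC-319-5p were both lower in every MS library than in any LW library. PC-112-5p passed after scaling to equal sums, at 0.88, after the GC correction, at 0.80, and without MS3, at 0.68. PC-319-5p passed after the GC correction, at −1.03, and by DESeq2, at −0.63, and PC-282-5p without LW1, at 1.70, while its direction turned after the GC correction, at −0.23.

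All 93 members entered the test and 55 (59.1%) passed, 23 of them higher and 32 lower in MS, beside 62.2% of the 548 miRNAs tested (34.1% higher and 28.1% lower). The share of members is thus near the background. Breeds did not overlap in 22 members higher and 33 lower in MS, beside 67.7% of all miRNAs (36.7% higher and 31.0% lower). A member that reached 10 in MS alone or LW alone was selected through that breed: 13 of the 17 MS members and 0 of the 31 LW members were called higher, and 21 of the 31 were called lower. Of the 45 members at 10 or more in both breeds, which the rule did not choose by a difference, 10 were called higher and 11 lower. The split depended on the scaling, with 30 higher and 25 lower once libraries were scaled to equal sums (42.3% and 21.5% of all miRNAs), and 27 higher and 25 lower after the GC correction (59.9% of all miRNAs, as 30.8% and 29.0%). Without LW1 the split was 26 and 26 (33.0% and 26.8% of all miRNAs). The median log2 fold change of the members was −0.57, against 0.11 over all miRNAs tested. It was −0.13 against 0.54 with equal sums, which added 0.43 to the median of all miRNAs, and −0.23 against −0.060 after the GC correction, so the gap between members and all miRNAs was narrower after the GC correction. Without these changes the median was −0.072 in the 45 members at 10 or more in both breeds. It was −1.84 in those selected through LW alone and 2.75 in those selected through MS alone. The median of all members thus rests in part on the selection.

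The largest rises were of sequences nearly without reads in LW. PC-407-5p stood at 1.25, 0.813 and 0 normalized reads in LW and at 164, 217 and 746 in MS, which were 2 reads against 905. All MS libraries lay far above all LW libraries, with a log2 fold change of 7.55 ± 0.58 (limma adjusted p = 9.21e-07), and the pooled reads gave a 460.2-fold ratio with a counting interval of 127 to 3806 (95%, exact). Its 18 letters, printed below, resemble the end of the 5′ adapter of common small RNA kits, a likeness that was not tested because no file held the adapter. PC-369-3p stood at 2.51, 4.07 and 0.913 in LW and 85.6, 73.5 and 169 in MS, with a log2 fold change of 4.99 ± 0.50 (limma adjusted p = 7.83e-06). PC-426-5p was at 0 in every LW library and at 35.3, 22.0 and 6.77 in MS, or 77 reads, which was at least 7.17-fold higher against a floor of 3 reads in each LW library. PC-27-3p, PC-14-5p and PC-247-5p, with log2 fold changes of 4.22, 3.81 and 3.48, are close to listed miRNAs and are taken up with them.

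The 6 largest falls were all of members of 22 or 23 nt, and PC-25-5p and PC-264-3p among them are described with their listed partners. PC-95-5p stood at 41.3, 84.6 and 32.9 normalized reads in LW and at 0, 0.918 and 0 in MS, that is 173 reads against 1. Its log2 fold change was −5.32 ± 0.54 (limma adjusted p = 7.99e-06) and its pooled ratio 170.1-fold (30.1 to 6757). PC-387-3p stood at 55.1, 21.1 and 38.4 in LW and 0.720, 0 and 3.38 in MS, and PC-308-5p at 48.9, 55.3 and 73.1 in LW and 2.88, 1.84 and 3.38 in MS. Neither overlapped between breeds, and the log2 fold changes were −4.22 ± 0.62 (adjusted p = 0.000107) for PC-387-3p and −4.02 ± 0.43 (adjusted p = 1.12e-05) for PC-308-5p by limma. PC-224-5p followed with −3.33, at 26.3 to 71.2 in LW and 2.16 to 6.77 in MS. All 6 rises reached the threshold in MS alone and all 6 falls in LW alone, so they were selected through the breed in which they are high, and their tests are no support for a property of the candidates.

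Among the members of middle abundance far from any listed miRNA, a few are given as cases chosen after their values were seen. PC-337-5p stood at 27.6, 42.3 and 11.9 normalized reads in LW and at 207, 402 and 57.5 in MS. PC-148-5p stood at 35.1, 33.4 and 51.2 in LW and at 169.8, 161 and 99.8 in MS. Both were above the LW range in every MS library, with log2 fold changes of 2.75 ± 0.64 and 1.81 ± 0.36 (SE, n = 3 per breed, limma adjusted p = 0.00273 and 0.000955). PC-182-3p stood at 82.7, 73.2 and 134 in LW and at 19.4, 15.6 and 11.8 in MS, without overlap, and fell by 2.53 ± 0.39 on the log2 scale (limma adjusted p = 0.000149).

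The members of 18 to 20 nt differed from the longer ones in how the libraries of a breed compared. They were highest in LW1 among the LW libraries in 22 of the 24 with any LW read, in MS2 among the MS libraries in 14 of 25, and in both in 14. Of the 66 members of 21 to 24 nt 16 were highest in LW1, 19 in MS2 and 7 in both, and of 350 known miRNAs of that length 72, 40 and 10. Of the 82 conserved miRNAs of that length 34 (41.5%) were highest in LW1, 20 in MS2 and 13 in both. Short listed miRNAs were few, with LW1 highest in 7 of 10 known and 4 of 5 conserved ones, and MS2 in 3 of each. The median ratio of LW1 to the mean of LW2 and LW3 was 2.18 in the short members and 0.833 in those of 21 to 24 nt, and it was above 2 in 16 of 24 and 5 of 66. The ratio of MS2 to the mean of MS1 and MS3 had medians of 1.32 and 0.987. PC-112-5p, PC-61-5p, PC-252-5p and PC-282-5p, with values given above or in the plot by library, had LW1 and MS2 at the top of their breeds, while PC-407-5p, which is more abundant than PC-282-5p, was highest in MS3.

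**Figure D2:**
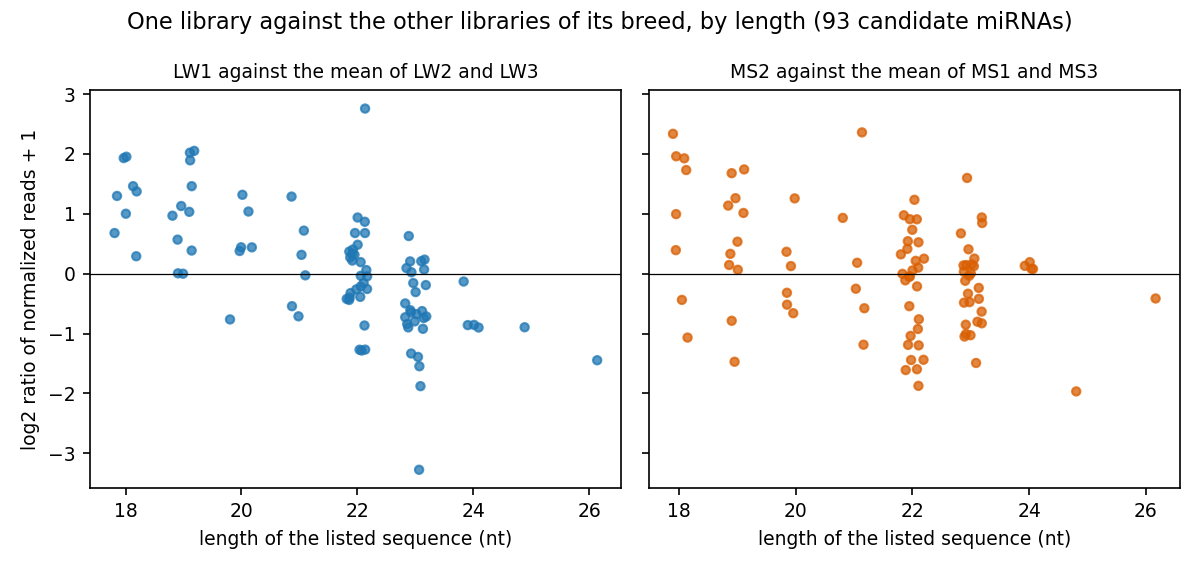
Log2 ratio of normalized reads plus 1 in LW1 over the mean of LW2 and LW3 (left) and in MS2 over the mean of MS1 and MS3 (right) against length in nt, 1 point for each of the 93 members, spread sideways within a length. Points of 18 to 20 nt lie mostly above 0 on the left, with LW1 highest in 22 of the 24 with any LW read.

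Summed over the 25 short members, levels were 2145, 999 and 1165 normalized reads in LW1 to LW3 and 2789, 5541 and 2778 in MS1 to MS3. All MS sums were above all LW sums, but 746 of the MS3 sum came from PC-407-5p. Without that member, a choice made after seeing the data, MS3 was at 2032 and LW1 at 2144, so the sums overlapped. As shares of the library sum they did not overlap, with 35.9 to 84.4 per 100000 in LW and 111 to 267 in MS without PC-407-5p. All 66 members of 21 to 24 nt gave 21020, 17842 and 18085 in LW and 35793, 30616.5 and 14819.5 in MS. Their sums in MS1 and MS2 were above all LW sums and that in MS3 below them. Leaving out the PC-92 arms changed this direction. The other 64 members gave 3799, 4763 and 5213 in LW and 3285, 3086 and 3018 in MS, with all MS sums lower. As shares of the library sum these overlapped, with 149.5, 171 and 179 per 100000 in LW and 139, 155 and 172 in MS. The spread between libraries of a breed was wider in the short members, with median coefficients of variation of 62.6% in LW and 59.5% in MS against 36.7% and 39.4%. Of the short members 10 were called higher (40%) and 2 lower (8%), and of those of 21 to 24 nt 13 (19.7%) and 30 (45.5%), beside 34.1% and 28.1% of all miRNAs tested. Of these calls 5 of the 10 and both of the 2, and 8 of the 13 and 19 of the 30, were of members that met the threshold only in the breed where they are high. The counts by length thus rest in large part on the selection, and the sums by length include such members. Among members that met it in both breeds, 5 of 16 short ones were called higher and 0 lower, and 5 and 11 of the 28 of 21 to 24 nt. The share of short members called higher was lower than the share of all miRNAs without LW2, with 6 members (24% against 31.4%), without LW3, with 6 (24% against 31.9%), and without MS2, with 7 (28% against 31.0%). It was 13 members after scaling to equal sums (52.0% against 42.3%) and 10 without both LW1 and MS2 (40% against 30.3%).

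**Figure D3:**
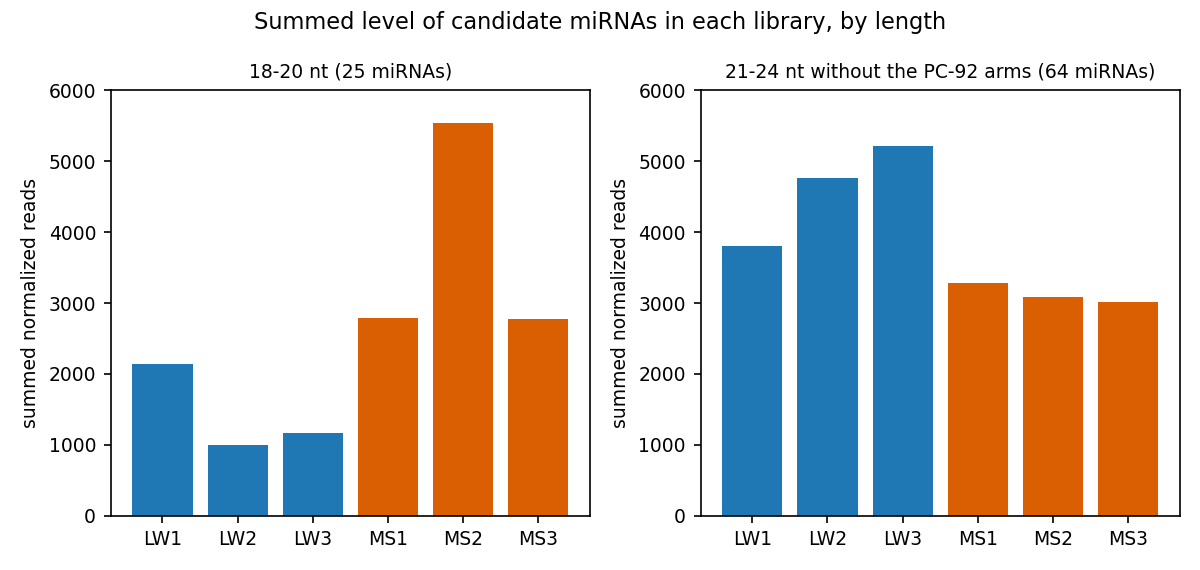
Bars give the summed normalized reads in each library (blue LW, orange MS) of the 25 members of 18 to 20 nt (left) and of the 64 members of 21 to 24 nt without the PC-92 arms (right), both axes from 0. The short members reach 5541 in MS2 and 2145 in LW1, and the longer ones are highest in LW3 at 5213. With the PC-92 arms, the longer members would sum higher in MS1 and MS2 than in any LW library.

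Listed sequences were also compared with the hairpin named for them, which was present for 92 members. In 51 of these the member lay in its hairpin base for base, and in 39 of the other 41 it differed from it at 1 base. An exact match was found in 8 of 25 short members (32.0%) and 41 of 65 members of 21 to 24 nt (63.1%). The differing base was inside the sequence in 15 of the 17 inexact short members, whereas in 12 of the 24 inexact members of 21 to 24 nt only the last 2 bases were involved. PC-112-5p and PC-61-5p, the most abundant short members, and PC-376-5p matched exactly and are not printed here. Of the inexact short members, 5 with a large change or a high level are printed with the differing base in capitals.
PC-407-5p: ttctacagtccaaCgatc
PC-252-5p: gtttgactgactGtgttt
PC-282-5p: tgttggaaCaatgtaggt
PC-369-3p: tCgcaaggctgaaacttaa
PC-426-5p: cctgtgagctctcgCtggc
These 5 were picked by their values, so their including 3 of the 6 largest rises follows from the choice. Of the 23 members called higher 10 matched exactly, of the 32 called lower 21, and of the 37 placed but not called 20. Of the called, 13 of the 23 and 21 of the 32 met the threshold only in the breed where they are high. A link between a differing base and breed was not tested.

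A group of members ended in the letters CAGT, namely 11 of 93 (11.8%), against 2.54% of the known and 0.840% of the conserved miRNAs and 8.90% of all candidate rows. The search read only the listed strand and only the last 4 bases. In 8 of the 11 the final base alone differed from the hairpin, so that the hairpin held the rest of the sequence. The grouping was made after the values were seen, and the 8 did not move together: PC-95-5p, PC-387-3p, PC-206-3p and the row of PC-129-3p and PC-130-3p were called lower, PC-197-3p and PC-383-3p higher, and PC-106-3p and PC-382-3p were not called. Those that moved most in each direction are shown with the differing base in capitals.
PC-95-5p: agggtctaggtcgcagatacagT
PC-387-3p: tgaacgcgggtccctccccagT
PC-206-3p: ttggccttcgcaccctaacagT
PC-383-3p: tcattctccttctttgaccagT
PC-206-3p stood at 15.0, 8.13 and 25.6 normalized reads in LW and 0, 0.918 and 1.69 in MS, and PC-383-3p at 1.25, 0.813 and 0 in LW and 11.5, 13.8 and 6.77 in MS. Neither overlapped between the breeds, and their log2 fold changes were −3.19 ± 0.61 and 2.82 ± 0.58. Both rest on few reads, 50 in LW against 2 in MS for PC-206-3p and 2 against 35 for PC-383-3p. Each met the threshold only in the breed where it is high and was selected through it.

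Close likeness to a listed miRNA was found in 27 members, which lay within 3 edits (bases added, lost or changed) of a known miRNA in 23 and of a conserved one in 4. A single edit separated 21 of the pairs. In 13 the candidate held the whole listed sequence plus added end bases, in 14 a base differed, and in 24 the seed was the same. The pairs below show the kinds of difference, with changed or added bases in capitals: a changed last base beside miR-92a, of the miR-17-92 cluster of proliferation, an added T beside miR-378-3p, a miRNA of energy metabolism and myoblast differentiation, an added first base, which shifts the seed, beside let-7a, a regulator of developmental timing, and a changed base in the middle beside miR-139-5p.
PC-7-3p: tattgcacttgtcccggcctgA
miR-92a-3p: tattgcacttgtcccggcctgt
PC-36-3p: actggacttggagtcagaaggcT
miR-378-3p: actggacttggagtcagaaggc
PC-84-5p: Gtgaggtagtaggttgtatagtt
let-7a-5p: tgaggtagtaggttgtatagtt
PC-25-5p: cccagtgttcagactacctgtCc
miR-199a-5p: cccagtgttcagactacctgttc
PC-26-3p: acagtagtctgcacattggCt
miR-199a-3p: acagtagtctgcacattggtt
PC-14-5p: tctacagtgcaTgtgtctccagt
miR-139-5p: tctacagtgcacgtgtctccagt
The candidates were far scarcer than their partners in most pairs, at under 10% of the partner in both breeds in 19 of 27.

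The log2 fold changes of candidate and partner are set side by side, and both come from the same 6 libraries. In 13 of the 27 pairs the candidate met the threshold in 1 breed only and was selected through it. Of the other 14 pairs 11 had the same sign and 12 lay within 1 log2 unit of each other, with both called in the same direction in 6, only the candidate in 2, only the partner in 1 and neither in 5. What share unrelated miRNAs of these libraries would give was not tested. Over all 27 both were called in the same direction in 11 pairs, only the candidate in 4, only the partner in 4, neither in 7 and in opposite directions in 1. PC-25-5p stood at 35.1, 40.3 and 47.0 normalized reads in LW and 2.88, 2.30 and 1.69 in MS, and miR-199a-5p, a miRNA of mesenchymal cells, at 154453, 154413 and 171528 in LW and 13214, 13421 and 9586 in MS. The candidate was 0.0227 to 0.0274% of its partner in LW and 0.0171 to 0.0218% in MS, and the log2 fold changes were −3.67 ± 0.44 and −3.74 ± 0.22. PC-25-5p met the threshold in LW alone, and its MS values rest on 4, 3 and 1 reads. PC-84-5p followed let-7a in the same way, at 0.255 to 0.307% of it in LW and 0.213 to 0.245% in MS, and let-7a fell by 1.65 on the log2 scale. PC-31-3p with −2.11 followed miR-320-3p with −1.89. PC-7-3p stood at 937, 1236 and 1304 in LW and at 658, 429 and 1107 in MS. It was 1.57 to 1.89% of miR-92a-3p in the LW libraries and 1.17 to 1.37% in the MS libraries, which did not overlap, and neither of the pair was called, though PC-7-3p passed without MS3, at −1.11. PC-36-3p stood at 669, 940.3 and 1155 in LW and at 781, 667 and 439.9 in MS, and was 8.27 to 10% of miR-378-3p in LW and 11.3 to 12.4% in MS.

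**Figure D4:**
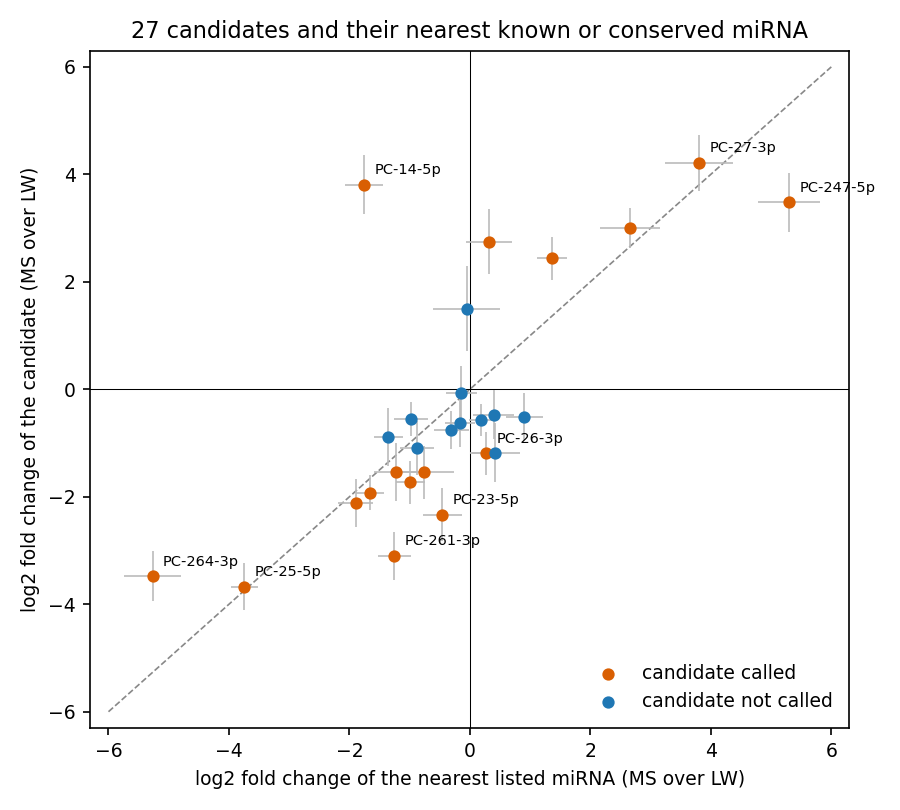
Log2 fold change of MS over LW of 27 candidates (vertical) against that of their nearest known or conserved miRNA (horizontal), with standard errors as bars, orange where the candidate was called and blue where it was not; the dashed line marks equal change. Of the 27 points 16 lie within 1 log2 unit of the line, and PC-14-5p lies at 3.81 against −1.76.

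Some pairs parted. PC-14-5p stood at 1.25, 0 and 0.913 normalized reads in LW and 15.8, 20.2 and 32.1 in MS, or 2 reads against 63, and had a log2 fold change of 3.81 ± 0.55 (SE, limma adjusted p = 9.54e-05). miR-139-5p stood at 859, 1234 and 1078 in LW and 278, 233 and 448 in MS and fell by 1.76 ± 0.32 (limma adjusted p = 0.000494). The candidate was 0 to 0.146% of miR-139-5p in LW and 5.68 to 8.66% in MS, without overlap. PC-26-3p was 0.212 to 0.373% of miR-199a-3p in LW and 0.0844 to 0.105% in MS, as the log2 fold changes were −1.19 for the candidate and 0.27, not called, for miR-199a-3p. PC-26-3p lost its call after scaling to equal sums, at −0.76, and without LW1, at −1.16, or LW3, at −0.90. PC-23-5p, with a C added to miR-196b-5p, a miRNA of the HOX clusters, was 0.274 to 0.378% of it in LW and 0.0564 to 0.0904% in MS. The row of PC-5-5p and PC-6-5p, which differs from miR-34c-5p in its last base alone, rose by 2.75 ± 0.61 (limma adjusted p = 0.00193) from 1.25, 1.22 and 3.65 in LW to 11.2, 12.4 and 42.3 in MS, while miR-34c-5p, a target of p53, was not called at 0.32 on that scale. PC-14-5p and the row of PC-5-5p and PC-6-5p met the threshold in MS alone, and PC-23-5p in LW alone. Their selection through that breed favours such a parting. Within 1 log2 unit of each other lay 4 of the 13 pairs selected through 1 breed and 12 of the other 14. The differences of the log2 fold changes themselves were not tested.

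In 4 pairs the partner was a conserved miRNA, of which PN-17-3p, PN-69-3p and PN-63-3p were scarce themselves. PC-27-3p stood at 1.25, 0.813 and 4.57 normalized reads in LW and 42.5, 46.8 and 69.4 in MS, above PN-17-3p in each MS library. Both rose, by 4.22 and 3.81 on the log2 scale. PC-46-3p, at 12.5, 13.0 and 8.22 in LW and 107, 86.3 and 93.1 in MS, was likewise more abundant than PN-69-3p, with log2 fold changes of 3.0 and 2.66. PC-247-5p was the scarce form beside PN-48-5p, with 3.48 and 5.30, and PC-264-3p beside PN-63-3p fell with it, with −3.48 and −5.27. The 66 members far from any listed miRNA had 17 calls higher and 22 lower, or 59.1% together, and the 27 close to one 59.3%, both near the 62.2% of all miRNAs tested.

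Some members shared most of their letters with each other, and these pairs are shown with the shared bases in capitals. PC-356-3p overlaps PC-92-5p and was given a hairpin of its own, from which it differs at 1 base inside the sequence. The PC-92 hairpin printed above holds all 22 bases of PC-356-3p without a difference. From which of the hairpins its reads came was not tested.
PC-92-5p: agCCAGGGCTGCAGGCACTGACA
PC-356-3p: CCAGGGCTGCAGGCACTGACAt
PC-61-5p: CTCCTGGCTGGCTCGCCA
PC-313-5p: cgtCTCCTGGCTGGCTCGCCA
PC-342-3p: CGACTCCCGGTATGGGAACC
PC-220-3p: ttCGACTCCCGGTATGGGAACC
Reads of such pairs could be split between the names by the counting, so the levels of each name are uncertain. PC-356-3p stood at 45.7, 48.8 and 60.7 normalized reads in LW and 7.20, 9.64 and 6.77 in MS and fell by 2.58 ± 0.39 on the log2 scale (limma adjusted p = 0.000136). It met the threshold in LW alone and was selected through that breed. The ratio of PC-92-5p to PC-356-3p was 33.99, 31.4 and 33.2 in LW and 84.2, 54.3 and 78.5 in MS. PC-313-5p stood at 99.0, 41.5 and 38.4 in LW and 5.76, 44.99 and 10.15 in MS, opposite in direction to PC-61-5p within it. The ratio of PC-61-5p to PC-313-5p was 3.92, 1.92 and 3.19 in LW and 68, 34 and 38.7 in MS. In MS1 to MS3 PC-356-3p had 10, 11 and 4 reads and PC-313-5p 8, 49 and 6, so the MS ratios are imprecise.

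The ratios of these pairs did not overlap between breeds, including PC-342-3p to PC-220-3p with 1, 0.632 and 1.29 in LW and 2.32, 2.42 and 1.43 in MS. In LW3 this last ratio rests on 5 reads of PC-342-3p and 4 of PC-220-3p. Each exact permutation p was again 0.1, the smallest possible, and 0.125 adjusted over the 5 ratios. PC-342-3p rose by 2.66 ± 0.57 (limma adjusted p = 0.00162). PC-220-3p had a log2 fold change of 1.57 ± 0.59 (limma adjusted p = 0.035), which was no longer called by edgeR, at 1.39, by DESeq2, at 1.34, without LW3, at 0.87, or without MS2, at 1.26. PC-313-5p, with −1.86 ± 0.65 (limma adjusted p = 0.0246), was no longer called after scaling to equal sums, at −1.44, after the GC correction, at −1.34, by edgeR, at −1.49, or without LW1, MS1 or MS3, at −1.28 to −1.64.

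**Figure D5:**
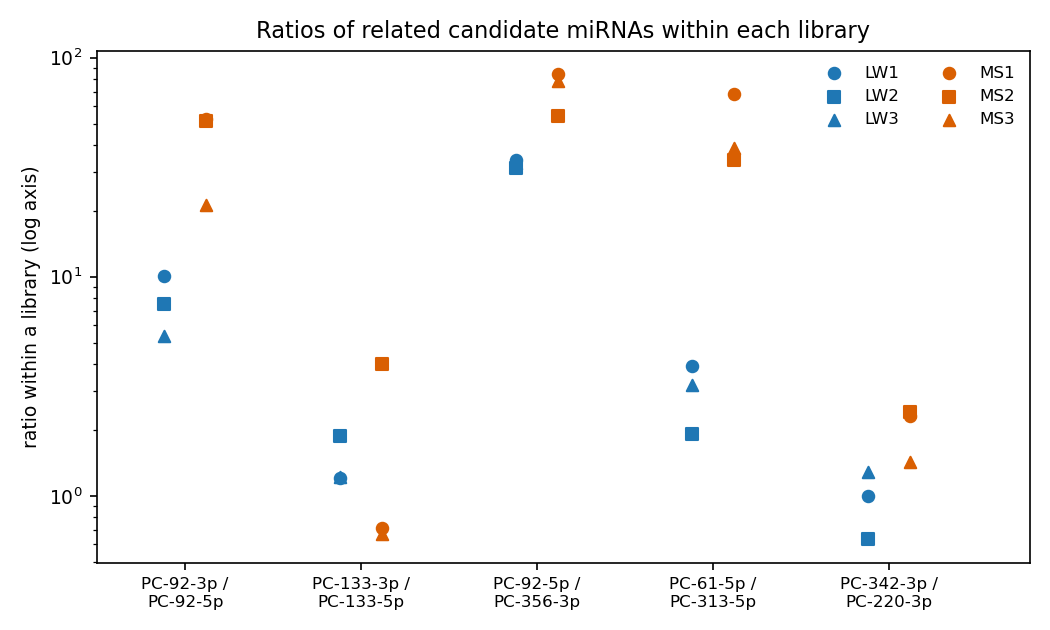
Ratio of the normalized reads of related members within each library (log axis), blue for LW and orange for MS, with a marker for each replicate number. In 4 of the 5 pairs all MS ratios lie above all LW ratios, as for PC-92-3p over PC-92-5p with 21.2 to 52.7 against 5.39 to 10.1, and the arms of PC-133 overlap.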

How the data were processed

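Small RNA libraries were made by the authors with a TruSeq small RNA kit from longissimus dorsi RNA and sequenced on an Illumina HiSeq. With ACGT101-miR (version not given in the sources used here) the authors removed adapters and reads outside 18 to 26 nt, removed matches to Rfam, NCBI and Repbase, and mapped the rest by BLAST to miRBase 21 and Sscrofa 10.2, with hairpins from RNAfold. The deposited unit is a signal: for every miRNA the table holds the read number of its top sequence after normalization, and the scaling target was not named, and the deposited breed means were not used. Sequences of members came from the deposited table and hairpins from the authors' hairpin list (matched by mature name for 92 of 93). No genome was matched, so no coordinates are given. Of the deposited lines 4 emptied ones are not reported here, and 1 candidate row was left out by the rule.

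Low values were whole multiples of 1 read in 93.3 to 95.7% of cases (tolerance 0.1 read, up to 20 reads). limma 3.58.1 (R 4.3.3) with an eBayes trend was fitted on the scale log2(value + 1) to the 548 miRNAs whose mean in a breed was at least 10, so fold changes of low miRNAs are understated, and p-values were adjusted by Benjamini-Hochberg over all 548 and called under 0.05. All 6 libraries entered, LW against MS. The test replaces the study's test on linear values. edgeR 4.0.16 and DESeq2 1.42.0 were run on the recovered reads as alternatives and called 345 and 347 miRNAs, against 341 by limma. Ratios and counting intervals used Python 3.11.15 with scipy 1.17.1. Reads carry no molecular identifiers, so intervals and floors of 3 reads cover counting error only.

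The members and lists were chosen with earlier results of these data known. Members were named by rule: the 12 most abundant, the 6 largest called rises and 6 largest falls without overlap, members related by sequence (overlap of 12 or more bases, or within 3 edits of a listed miRNA), both arms of a hairpin, rows with several names, those at the threshold and those at 0 in a breed. Other members named were chosen after their values were seen. Alternatives were pseudocounts of 0.5 and 10, scalings, filters, a GC correction, the replicate block, the count tests and leaving out each library.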

Additional observations from a re-analysis of the deposited data

How the results depend on the processing

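The counts of members called, 55 in all with 23 higher and 32 lower, stayed within 1.5 times under every alternative run, with 42 to 58 in all, 18 to 26 higher and 24 to 33 lower when 1 library was left out, beside 31.0 to 36.5% higher and 22.8 to 30.1% lower of all miRNAs tested. The 14 short members highest in both LW1 and MS2 were 14 of 25 with equal sums, 11 of 19 at 18 to 19 nt, 13 of 19 at a breed mean of 20 and 14 of 23 at a mean of 10 over the 6 libraries. The replicate numbers do not pair the libraries (correlations of same-numbered deviations of 0.005, −0.211 and 0.097, and 0.358 for LW1 with MS2), and the replicate block gave 23 higher and 32 lower and changed no named call. Of 49 named members 27 kept direction and side of the threshold throughout. Direction turned in 4 uncalled members, and the cause was not tested: after GC correction, with or without the block, PC-36-3p stood at 0.0052, PC-282-5p at −0.2344 and PC-33-3p at 0.1724, and PC-19-5p stood at 0.3452 with equal sums, and at −0.5217 to 0.4207 when 1 library was left out, above 0 without LW2, MS2 or MS3. Depth limits the scarce members, as 32 stayed under 20 normalized reads in both breeds.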
